A study of Mus musculus with 8 samples.

Results

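In allografts of N2N1G, a mouse line of small-cell lung cancer, a minority of the tumour cells held transcripts of En1, Des and 3 neighbouring Hoxd genes. They were chosen by their counts: a cell in which 500 or more genes were detected, and whose mitochondrial transcripts made up no more than 10%, was taken as a tumour cell where eGFP and Mycl gave at least 0.2% of its unique molecular identifiers (UMIs, the count of captured transcript molecules), and it was placed in the En1 Des Hoxd class where the UMIs of En1, Des, Hoxd9, Hoxd10 and Hoxd11 summed to at least 2. Of 38460 deposited cells 36797 passed the quality limits, 34719 of these were tumour cells, and 2802 tumour cells (8.07%) formed the class. The remaining 31917 tumour cells, with a sum of 0 or 1, were the cells they were compared with, always within the same library.

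The study asked how the tumour cells differ with the organ in which they grow, with the brain as the site of interest. N2N1G cells were grown in RPMI-1640 medium with bovine growth serum, and each allograft received the same number of cells. Brain allografts (2 libraries) and subcutaneous allografts (3 libraries) were made by direct injection and liver allografts (3 libraries) by tail vein injection, and all were harvested 3 weeks later, sorted for healthy single cells and profiled by 10x 3′ sequencing of polyadenylated RNA. All groups therefore share 1 cell line and its genotype, and in the liver the organ and the route of injection cannot be told apart. The labels used here give no mouse strain or age and do not say that replicates came from separate animals, so each p-value measures the spread between these libraries. No treatment was given to any group.

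Small-cell lung cancer is a neuroendocrine carcinoma, whose cells carry genes of hormone-secreting and neuron-like cells. En1 encodes a homeodomain transcription factor of the embryonic midbrain and hindbrain, and it is known for its role in dopaminergic neurons. Des encodes desmin, the intermediate filament protein of muscle. Hoxd9, Hoxd10 and Hoxd11 lie side by side in the Hoxd cluster, whose homeodomain factors pattern the trunk, limbs and urogenital tract, and which Polycomb complexes keep silent in most other cells.

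In the GRCm38 annotation En1 lies on chromosome 1 (120602418 to 120607992) and Des on the same chromosome (75360329 to 75368579), while Hoxd11 (74679557 to 74687016), Hoxd10 (74691924 to 74695105) and Hoxd9 (74697727 to 74700208) follow one another on chromosome 2, all on the plus strand. The 250 bases before the start site of 3 of the genes are shown because they contrast a muscle gene with the Hoxd cluster: Des, Hoxd10, and Hoxd8, a neighbour that the choice of cells did not use. The sequences are from RefSeq, build GRCm38.p6, plus strand, at chr1:75360042-75360291, chr2:74691641-74691890 and chr2:74704365-74704614. Capitals mark the dinucleotide CG, which reads the same on both strands and is where vertebrate DNA is methylated.
Des: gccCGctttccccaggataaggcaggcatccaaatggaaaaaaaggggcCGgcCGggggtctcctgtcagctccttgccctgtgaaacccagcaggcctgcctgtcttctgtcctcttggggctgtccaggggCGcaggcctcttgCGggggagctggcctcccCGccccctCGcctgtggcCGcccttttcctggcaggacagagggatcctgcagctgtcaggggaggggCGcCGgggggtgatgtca
Hoxd10: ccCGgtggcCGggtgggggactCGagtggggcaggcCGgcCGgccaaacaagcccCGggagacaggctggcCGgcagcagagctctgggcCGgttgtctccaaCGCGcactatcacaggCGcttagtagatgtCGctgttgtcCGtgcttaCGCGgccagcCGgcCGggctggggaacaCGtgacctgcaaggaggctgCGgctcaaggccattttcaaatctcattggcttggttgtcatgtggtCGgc
Hoxd8: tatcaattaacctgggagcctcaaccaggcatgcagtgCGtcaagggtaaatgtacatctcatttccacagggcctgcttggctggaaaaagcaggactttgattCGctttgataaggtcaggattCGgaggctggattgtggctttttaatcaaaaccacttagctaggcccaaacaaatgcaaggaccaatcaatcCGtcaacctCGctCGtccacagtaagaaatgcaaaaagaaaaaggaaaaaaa
The window held 10 CG in Des, 20 in Hoxd10 and 6 in Hoxd8. The same window held 19 in En1, 20 in Hoxd11 and 13 in Hoxd9. Over 27025 RefSeq promoters the median was 6, and 40.2% held as many as Des, 19.7% as many as Hoxd10 and 52.6% as many as Hoxd8. The 5 genes thus shared no single level of CG content. The count describes the sequence only, since methylation was not measured.

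The libraries held 27140735 to 63049542 UMIs, and the counts summed over the class came to 499479 UMIs in liver replicate 3 up to 12578301 in brain replicate 2. Median UMIs per cell were 7114.5 to 9487 over the libraries of the class and 7894 to 10561.5 over those of the other tumour cells, lower in the class in 7 libraries and higher in brain replicate 1 (8061 against 7894). Pairs of libraries had 20 to 56 cell barcodes in common, and 119 cells of the class carried a barcode that also occurred in another library. eGFP was detected in 99.1% to 100% of the class, and its lowest, median and highest levels per library were 2361, 3758 and 5867 CPM (UMIs scaled to an equal total per summed library) against 1590, 2338 and 2552 in the other tumour cells. Mycl went the other way, at 2195, 3189 and 4468 CPM against 4209, 6471 and 7908. As both served to define tumour cells these levels are a description.

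Most tumour cells had no UMI of the 5 genes: 31093 had a sum of 0 and 824 a sum of 1, just outside the limit, while 553 had a sum of 2, just inside it, and 2249 had 3 or more. Within the class 66.8% of cells had a UMI of En1, 65.7% of Des, 56.1% of Hoxd11, 46.4% of Hoxd9 and 40.4% of Hoxd10, and 91.2% held at least 2 of the 5 genes. En1 stood at 88.7, 106 and 155 CPM (lowest, median and highest library) in the class against 0.021, 0.109 and 2.91 in the other tumour cells. Des stood at 114, 203 and 288 CPM against 0.263, 0.346 and 3.29, and Hoxd11 at 74.5, 103 and 127 CPM against 0, 0.0999 and 2.99. These values chose the cells and are given as a description. Among 2078 cells below the tumour limit 21 (1.01%) reached a sum of 2, with median depths of 3585 to 5008 UMIs per library.

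**Figure D1:**
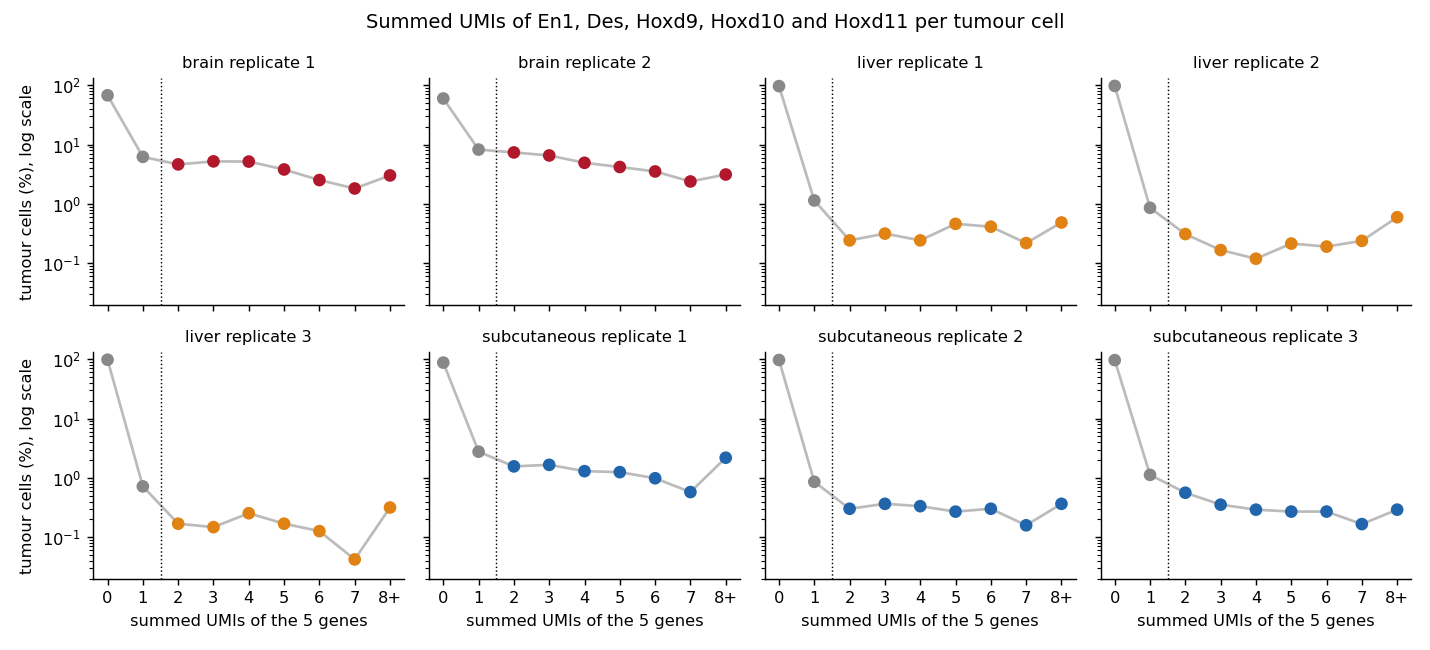
Percent of tumour cells (y axis, log scale) by the summed UMIs of En1, Des, Hoxd9, Hoxd10 and Hoxd11 per cell (x axis), 1 panel per library, with the dotted line between the cells outside (grey) and inside (coloured) the class. In all 8 libraries most cells had a sum of 0 (59.7% in brain replicate 2 to 98.1% in liver replicate 3), and the percentages at higher sums were largest in the brain libraries.

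The 5 genes went together also when 1 of them was held back. With En1 left out, cells with at least 2 UMIs of the other 4 genes had 84.5 to 143 CPM of En1, against 0.144 to 17.2 CPM in the remaining tumour cells. The mean log2 ratio over libraries was 5.15 ± 1.51 (SD, n = 8) for En1, 5.38 ± 1.82 for Des, 4.47 ± 0.97 for Hoxd9, 5.02 ± 1.10 for Hoxd10 and 5.27 ± 1.51 for Hoxd11. Each held-back gene was higher in all 8 libraries. The genes were picked together from these cells, so the ratios describe how closely the 5 go together and are not a test.

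Clustering of all tumour cells on 2000 variable genes that left out the 5 genes placed the class together. Of 16 clusters, 2 held at least 50% cells of the class, and these 2 contained 2650 of the 2802 cells (94.6%). By library they took in 74.0% (liver replicate 2) to 97.9% (brain replicate 2) of the class. They also took in some of the other tumour cells: 6.84% and 11.5% in the brain libraries, 0 to 0.149% in the liver, 1.36% in subcutaneous replicate 1, and 0.179% and 0.171% in subcutaneous replicates 2 and 3. Taken as a whole, inside and outside these 2 clusters, the other tumour cells of the brain libraries also carried more of the transcripts described next. In them the summed CPM of the 12 genes with the largest increase in the class was 6.46% and 10.2% of the class's own level. It was 2.14% in subcutaneous replicate 1 and 0.285% to 0.427% elsewhere.

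The class made up a larger share of the tumour in the brain than at the other sites. It was 26.2% of tumour cells (633 of 2418, exact 95% binomial interval 24.4 to 28.0) in brain replicate 1 and 32.1% (1302 of 4060, 30.6 to 33.5) in brain replicate 2. In the liver it was 2.38% (98 of 4114, 1.94 to 2.90), 1.84% (77 of 4189, 1.45 to 2.29) and 1.23% (58 of 4720, 0.934 to 1.59) in replicates 1, 2 and 3. Both brain libraries lay above all others, and all liver libraries were low.

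Among the subcutaneous libraries replicate 1 stood apart at 9.54% (396 of 4150, 8.66 to 10.5), against 2.10% (132 of 6276, 1.76 to 2.49) in replicate 2 and 2.21% (106 of 4792, 1.81 to 2.67) in replicate 3. The intervals cover counting error only. The site means were 29.1% ± 4.17 (SD, n = 2) in the brain, 1.82% ± 0.577 (n = 3) in the liver and 4.62% ± 4.26 (n = 3) under the skin. The shares differed among the 3 sites by more than the spread between libraries (exact permutation test of the F statistic over all 560 assignments, p = 0.0107), with the brain 25.9 percentage points above the mean of the other sites. The 5 genes were picked with results of these data known. The p-values for the share, here and below, do not allow for that choice.

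Pairs of sites could not reach a p-value below 0.1 in 2-sided exact permutation tests of so few libraries. The brain stood 27.3 points above the liver (exact permutation p = 0.1) and 24.5 points above the subcutaneous site (exact permutation p = 0.1). The liver differed from the subcutaneous site by -2.80 points (exact permutation p = 0.3), less than the spread among the subcutaneous libraries. Without liver replicate 2, liver replicate 3 or subcutaneous replicate 1 the exact permutation p over the 3 sites was 0.0667, 0.0667 and 0.0571, with a brain excess of 25.8 to 27.1 points.

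When each tumour cell was thinned to 3000 UMIs (48 to 180 cells per library were too shallow for this), the shares were 13.4% and 15.7% in the brain, 0.903% to 1.33% in the liver, and 5.30%, 1.13% and 1.25% in the subcutaneous libraries. The order of the sites was the same at equal depth, and the difference among them had an exact permutation p of 0.0143. The cells below the tumour limit give the background of the same count: 9 of 958 (0.939%) and 1 of 351 (0.285%) reached a sum of 2 in the brain, and 8 of 273 (2.93%) did in subcutaneous replicate 1. In the liver libraries 0 of 57, 0 of 168 and 0 of 90 such cells did, which allows shares of up to 5.26%, 1.79% and 3.33% for counting error only. Over all libraries 1.01% of these shallower cells reached the sum. Cells of the class in the liver carried a median of 5 UMIs of the 5 genes in replicates 1 and 3 and of 6 in replicate 2.

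**Figure D2:**
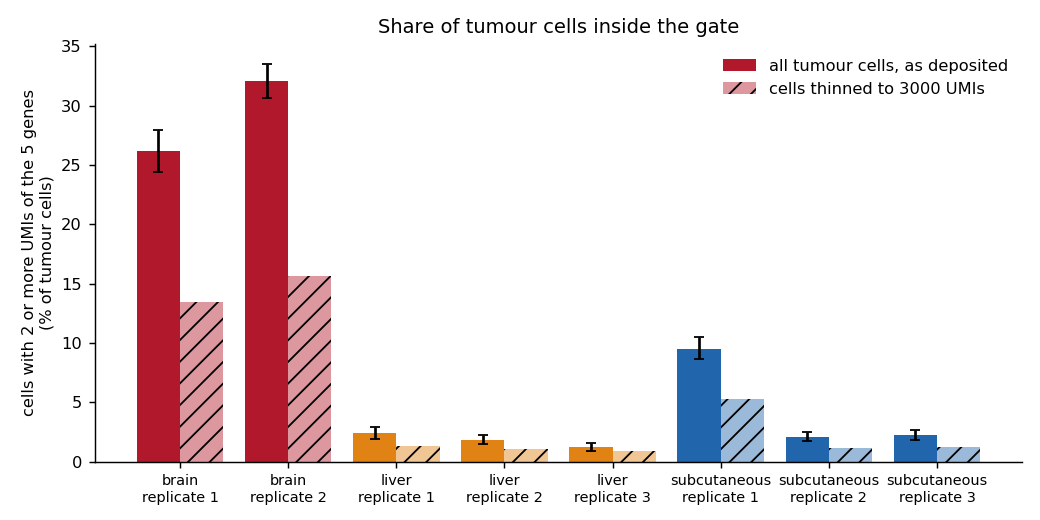
Share of tumour cells in the class (y axis, percent) in each of the 8 libraries (red brain, orange liver, blue subcutaneous), from all UMIs (solid bars) and with every cell thinned to 3000 UMIs (hatched bars), with exact 95% binomial intervals. The brain libraries stand at 26.2% and 32.1%, subcutaneous replicate 1 at 9.54% and the other libraries at 1.23% to 2.38%.

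The make-up of the 5-gene signal varied between sites. In the liver 83.7%, 88.3% and 84.5% of the cells of the class had a UMI of Des, against 60.7% and 64.1% in the brain. En1 was detected in 73.0% and 67.4% of the class in the brain and in 53.5% to 59.7% in the liver. Since the sum of the 5 genes chose the cells, these shares trade against one another and were not tested.

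Around the 3 genes used, the rest of the Hoxd cluster showed a sharp border. Hoxd8, the next gene toward the front end of the cluster and not used to choose cells, stood at 44.9, 66.0 and 80.8 CPM (lowest, median and highest library) in the class against 0.559, 0.900 and 6.81 in the other tumour cells. The 2 groups of libraries did not overlap, and the difference was 4.99 on the log2 scale (SE 0.50, adjusted p = 0.000108, edgeR quasi-likelihood test). Hoxd1, at the front end, was lower in level but also higher in the class, at 1.10, 1.99 and 13.5 CPM against 0, 0.096 and 0.230 (log2 difference 5.24, SE 0.57, adjusted p = 1.12e-06). Both were higher in 8 of 8 libraries.

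The members toward the back end were nearly silent. Summed over all cells of the class Hoxd13 gave 3 UMIs and Evx2 and Hoxd12 gave 0, while Hoxd11 gave 2520 UMIs, Hoxd10 1537 and Hoxd9 1933. Hoxd3 and Hoxd4, which overlap each other, gave 16 and 4 UMIs. Outside the cluster Mtx2, a mitochondrial import gene, had a median of 132 CPM in the class against 128 (log2 difference 0.01, SE 0.06, adjusted p = 0.944). Lnpk, an endoplasmic reticulum gene on the other side, was lower, at a median of 25.4 CPM against 40.8 (log2 difference -0.63, SE 0.11, adjusted p = 0.000126).

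**Figure D3:**
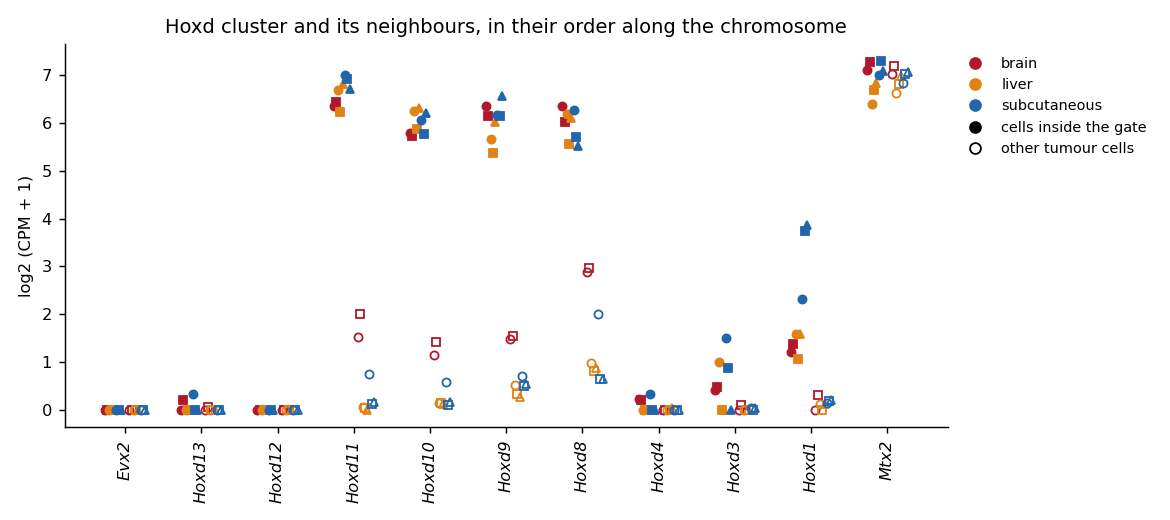
Levels (y axis, log2 of CPM plus 1) of the Hoxd cluster genes and their neighbours, in chromosomal order (x axis), with 1 point per library for cells of the class and for the other tumour cells. Hoxd11 to Hoxd8 stand far above the other tumour cells, Hoxd13, Hoxd12 and Evx2 lie near 0, and Mtx2 is level.

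Hox genes of the other clusters went the opposite way. Of 30 such genes 8, all of the Hoxb cluster, had enough counts to be tested, and all 8 were lower in the class, with a median log2 difference of -1.82 against -0.02 over all 12116 genes tested. Over all tested genes 46.4% were called at an adjusted p under 0.05 in the edgeR fit, 22.5% higher and 23.9% lower. Hoxb7 stood at 11.1, 21.4 and 48.6 CPM in the class against 72.9, 83.6 and 95.2 (log2 difference -2.06, SE 0.22). Its libraries did not overlap between the classes. Hoxb9, the most abundant by CPM, had a median of 54.0 CPM against 140 (log2 difference -1.78, SE 0.26) and its groups overlapped. Hoxb2, at the front end of its cluster, had a median of 14.3 CPM against 42.9 (-1.85, SE 0.11).

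The class differed from the other tumour cells in very many genes besides these. The fit, with a term for each library, called 5623 of the 12116 genes, 2731 higher and 2892 lower. For 1125 genes (9.29%) the 8 libraries of the class did not overlap those of the other tumour cells. Of the 5623 genes 5333 (94.8%) had the same direction at all 3 sites. In a fit over all 8 libraries with a class difference for each site (13685 genes tested), 4630 genes were called in the brain, 3264 in the liver and 4622 under the skin, and 1876 of the 5623 (33.4%) were called at each of the 3. Fits to the libraries of a single site called 6403 genes in the brain, 2945 in the liver and 3457 under the skin.

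The 12 largest increases joined genes of embryonic patterning, secreted signals and cell surface proteins. Gsc, the homeodomain factor goosecoid of the early embryo's organizer (chromosome 12, 104471209 to 104473330), stood at 4.37, 10.2 and 30.03 CPM in the class against 0, 0.019 and 0.579 (log2 difference 7.01, SE 0.99, adjusted p = 0.00031). It was higher in the class in 8 of 8 libraries, a condition for naming it, and the groups did not overlap.

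Among secreted factors, Edn3, the peptide endothelin 3 that acts on neural crest cells (chromosome 2, 174760619 to 174784042), stood at 40.1, 90.5 and 184 CPM against 0.082, 0.356 and 9.38 (log2 difference 6.41, SE 0.99, adjusted p = 0.00124). Fst, the activin antagonist follistatin (chromosome 13, 114452290 to 114458951), stood at 44.9, 116 and 156 CPM against 0.128, 0.478 and 6.66 (6.37, SE 0.84, adjusted p = 0.000521). In both the lowest library of the class lay above the highest of the other tumour cells. Mfap2, a microfibril protein of the extracellular matrix, stood at 27.3, 125 and 174 CPM against 0.658, 0.954 and 3.54 (6.08, SE 0.71). Nell2, a secreted neural protein, reached 9.86, 15.8 and 24.02 CPM (6.17, SE 0.73), and Nrn1, the neurite growth protein neuritin, 8.01, 13.2 and 34.4 CPM (5.98, SE 0.89).

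At the cell surface, Tm4sf1, a 4-pass membrane protein of migrating cells (chromosome 3, 57285611 to 57301988), was the most abundant of the 12 in CPM, at 62.4, 139 and 193 against 0.078, 0.597 and 15.4 (log2 difference 5.94, SE 0.78, adjusted p = 0.000524). The other members were enzymes and an RNA-binding protein. Upp1, uridine phosphorylase, stood at 25.8, 61.3 and 106 CPM (5.74, SE 0.79), Gpx7, a peroxidase of the endoplasmic reticulum, at 32.7, 49.7 and 56.4 CPM (5.94, SE 0.89), Pde8a, a cyclic AMP phosphodiesterase, at 11.1, 15.2 and 23.6 CPM (5.86, SE 0.94), and Rbm46, known from germ cells, at 8.93, 12.9 and 23.6 CPM (63.9-fold higher in the fit). All 12 were higher in 8 of 8 libraries, a condition for naming them, and none overlapped between the classes. Fst was not called within the brain alone (log2 difference 3.70, adjusted p = 0.127) or the subcutaneous site alone (6.93, adjusted p = 0.068), nor Tm4sf1 (7.06, adjusted p = 0.059) and Upp1 (7.26, adjusted p = 0.0518) within the latter, and Upp1 also lost its call where En1 alone chose the cells (2.98, adjusted p = 0.0729).

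The 12 largest decreases were smaller in fold and included epithelial and growth factor genes. Igfbp2, which binds insulin-like growth factors (chromosome 1, 72824503 to 72852474), was the most abundant of them in CPM, at 88.9, 339 and 529 in the class against 511, 1244 and 2203 (log2 difference -2.18, SE 0.21, adjusted p = 7.63e-05). Its groups overlapped, and it was lower in each of the 8 libraries, a condition for naming it. Gpc3, a glypican of the cell surface (X chromosome, 52272426 to 52613950), stood at 0.792, 3.99 and 7.67 CPM against 8.07, 20.3 and 32.5 (-2.63, SE 0.17, adjusted p = 3.57e-09). Tex14, known from germ cell bridges (chromosome 11, 87405065 to 87555823), stood at 5.54, 11.3 and 19.8 CPM against 28.4, 53.6 and 58.8 (-2.20, SE 0.10, adjusted p = 1.5e-10). These 2 genes did not overlap between the classes.

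Transcription factors among the decreases were Isl1, a LIM homeodomain factor of neurons and endocrine cells, at 0, 2.77 and 6.54 CPM against 6.61, 11.99 and 19.6 (log2 difference -2.25, SE 0.20), Ovol1, a zinc finger factor of epithelia (-2.25, SE 0.17), and Tfap2c, an AP-2 factor (-2.16, SE 0.23). The remaining 6 were Tmem47 (-2.31, SE 0.16), Tacc2 (-2.20, SE 0.23), Kcnh8 (-2.17, SE 0.24), Khdrbs2 (-2.16, SE 0.19), Cldn23 (-2.37, SE 0.22) and Tspan1 (-2.22, SE 0.16). Each of the 12 was lower in 8 of 8 libraries, a condition for naming them, and Cldn23, Tspan1, Igfbp2 and Tfap2c overlapped between the classes.

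**Figure D4:**
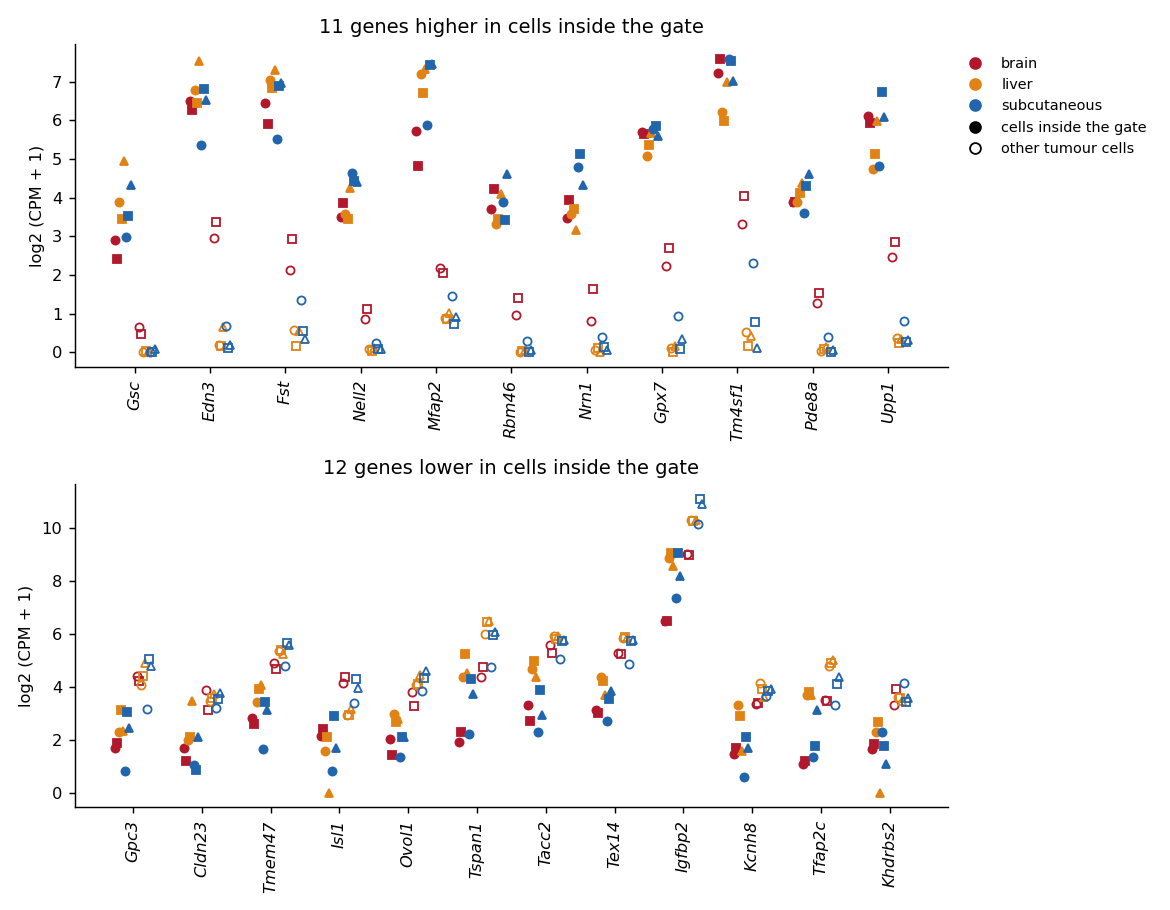
Levels (y axis, log2 of CPM plus 1) of 11 of the 12 genes with the largest increase and the 12 with the largest decrease in the class, 1 point per library for cells of the class and for the other tumour cells. The 11 increased genes are higher in the class in 8 of 8 libraries and the 12 decreased genes lower in 8 of 8, a condition for naming them.

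The level of these genes followed the sum that chose the cells. The summed level of the 12 increased genes was 4.52 CPM in tumour cells with a sum of 0, 182 CPM with a sum of 1, 476 CPM with a sum of 2 and 537 CPM with a sum of 3. The 12 decreased genes summed to 1766 CPM at 0, 788 CPM at 1, 202 CPM at 2 and 207 CPM at 3. Most of the cells with a sum of 2 were brain cells (411 of 553), and the sites differed. In the brain the 12 increased genes summed to 498 CPM at 2 and 515 CPM at 3, and under the skin to 502 and 594 CPM. In the liver they summed to 61.1 CPM at 1, 205 CPM at 2 (31 cells), 626 CPM at 3 and 844 CPM at 4, so liver cells just inside the limit held a lower level than those further in. As the 24 genes were named for this contrast the levels are a description.

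Neuroendocrine genes were split. Of 29 tested 12 were higher and 11 lower in the class, with a median log2 difference of 0.09 against -0.02 over all genes. Over all tested genes 22.5% were called higher and 23.9% lower, and the list counts that follow stand beside these shares. Several genes of hormone processing and secretory granules rose: Pcsk1, a prohormone convertase, from a median of 9.55 to 157 CPM (log2 difference 3.53, SE 0.32, adjusted p = 6.27e-05), Pcsk1n, its inhibitor, from 42.3 to 187 CPM (1.96, SE 0.20), and Resp18, a secretory granule protein, from 9.73 to 115 CPM (3.22, SE 0.14). Calca, which encodes calcitonin and its related peptide, stood at 257, 406 and 1448 CPM in the class against 37.3, 65.1 and 87.5 (2.97, SE 0.46, adjusted p = 0.00129). All 4 were higher in 8 of 8 libraries without overlap. Pcsk2, the other prohormone convertase, fell from a median of 38.8 to 26.8 CPM (-0.59, SE 0.14, adjusted p = 0.00266), and Scg5, its chaperone, did not pass the test (-0.11, SE 0.09, adjusted p = 0.318).

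Dll3, an inhibitory Notch ligand of these tumours, rose from a median of 39.7 to 95.1 CPM (1.21, SE 0.07). Lineage factors moved less or fell: Insm1 had a median of 139 CPM against 212 (-0.61, SE 0.05), and Nkx2-1, a lung factor, 271 against 188 (0.50, SE 0.05). Neurod1 fell by 2.78 on the log2 scale (SE 0.41) from an already low median of 4.10 CPM. Among neuron-like structural genes Uchl1 had a median of 628 CPM against 1026 (-0.71, SE 0.05) and Stmn2 27.4 against 140 (-1.95, SE 0.25). Insm1 and Nkx2-1 overlapped between the classes, Uchl1 did not.

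Genes of the non-neuroendocrine state of this cancer were mostly higher, 12 of 16 tested, with 2 lower and a median of 1.53. Their levels stayed modest: Lgals1, galectin 1, had a median of 189 CPM against 33.8 (log2 difference 2.19, SE 0.24), S100a6 78.7 against 1.63 (3.86, SE 0.68), Anxa2 19.6 against 1.51 (3.20, SE 0.69) and Vim, vimentin, 8.99 against 0.472 (3.18, SE 1.09, adjusted p = 0.0456). Twist1 (-1.60, SE 0.23) and Zeb2 (-0.80, SE 0.13) were the lower ones. Epithelial genes of the tumour were mostly lower, 11 of 13 tested, with 1 higher and a median of -1.54. Epcam, an epithelial adhesion protein, had a median of 287 CPM against 784 (-1.45, SE 0.08), Krt8, a keratin, 122 against 369 (-1.74, SE 0.23), and Cdh1, E-cadherin, 5.004 against 20.9 (-2.09, SE 0.18). The exception was Elf3 (1.35, SE 0.30), an epithelial ETS factor.

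Other genes of the midbrain and hindbrain went partly with En1. Of 15 tested 9 were higher and 2 lower, with a median of 0.85. Th, tyrosine hydroxylase of dopamine synthesis, stood at 0, 7.25 and 15.03 CPM against 0, 0.037 and 1.48 (log2 difference 4.76, SE 0.83). En2, the paralog of En1, had a median of 5.54 CPM against 0.773 (1.91, SE 0.34), Lmx1b, a LIM factor, 5.75 against 2.52 (1.02, SE 0.22), and Tle1, a co-repressor, 99.3 against 42.6 (1.07, SE 0.11). Th and En2 were higher in 7 of 8 libraries, Lmx1b and Tle1 in all 8.

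Few other genes of muscle were detected beside Des. Of 28 skeletal muscle genes 7 could be tested, 1 higher and 5 lower, with a median of -1.05. Tnnc1, slow troponin C, was the higher one, at a median of 1.45 CPM against 0.765 (1.00, SE 0.35, adjusted p = 0.0288), and Acta1, skeletal actin, had 5.10 against 10.4 (-1.05, SE 0.21). Among 15 intermediate filament genes and partners 6 were higher and 4 lower, with a median of 0.06, where 22.5% and 23.9% of all tested genes were called. Prph, the neuronal filament peripherin, rose from a median of 62.3 to 228 CPM (1.67, SE 0.19) and Nefm from 3.44 to 16.8 CPM (1.92, SE 0.41), while Cryab, a desmin chaperone, fell by 1.48 on the log2 scale (SE 0.17).

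Genes of axon growth and neuronal adhesion were more often lower, 17 of 32 tested, with 8 higher and a median of -0.26. Nrp1, a semaphorin receptor, rose from a median of 5.18 to 21.2 CPM (log2 difference 2.16, SE 0.40), Dcx, a microtubule protein of young neurons, from 7.26 to 18.4 CPM (1.16, SE 0.20), and Reln, reelin, from 1.31 to 6.74 CPM (1.80, SE 0.23). Sema3c, a semaphorin, fell from a median of 44.1 to 14.6 CPM (-1.59, SE 0.18) and Gap43, a growth cone protein, from 92.4 to 72.8 CPM (-0.60, SE 0.10).

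Of 11 tested Wnt pathway genes 4 were higher and 2 lower, with a median of 0.07. The ligand Wnt4 rose from a median of 0.744 to 29.2 CPM (4.80, SE 0.57, adjusted p = 0.00024), and the inhibitor Sfrp1 fell from 74.3 to 29.96 CPM (-1.34, SE 0.15). Notch pathway genes were called in both directions, 7 higher and 5 lower of 13 with a median of 0.32, as were Polycomb and trithorax regulators, 6 and 6 of 31 with a median of -0.04. Over all tested genes 22.5% were called higher and 23.9% lower. The Polycomb and trithorax counts lay near these shares and are not read as a result about that family.

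Interferon response genes were mostly higher in the class, 11 of 14 tested with 1 lower and a median of 1.502. Bst2, tetherin, stood at 0, 8.81 and 253 CPM against 0.279, 0.904 and 45.4 (log2 difference 2.42, SE 0.19), with its high values in the brain. H2-K1, a class I histocompatibility gene with close copies, had a median of 42.6 CPM against 4.44 (2.07, SE 0.46). Ifitm3 was the lower one (-1.27, SE 0.24). Hypoxia and glycolysis genes were more often lower, 10 of 20 with 2 higher and a median of -0.40. Eno1, enolase, fell from a median of 821 to 300 CPM (-1.46, SE 0.11), while Slc2a1, the glucose transporter GLUT1, rose from 32.1 to 125 CPM (1.79, SE 0.09).

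Of 15 tested immediate early and heat shock genes 7 were higher and 3 lower, with a median of 0.16, where 22.5% and 23.9% of all tested genes were called. Junb rose from a median of 231 to 726 CPM (log2 difference 2.01, SE 0.15) and Fos from 70.0 to 233 CPM (1.75, SE 0.13), both higher in 8 of 8 libraries.

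Cell cycle measures went in different directions. Of 20 genes of the G2 and M phases 2 were higher and 1 lower, with a median of 0.10, and of 18 S phase genes 5 were higher and 2 lower, with a median of 0.09. Over all tested genes 22.5% were called higher and 23.9% lower. With each cell thinned to 3000 UMIs, 26.8% ± 4.07 of the class (SD, n = 8) against 36.2% ± 2.68 of the other tumour cells had at least 4 UMIs of the G2/M genes, lower in 8 of 8 libraries (2-sided exact sign-flip permutation p = 0.0078, the smallest that 8 libraries allow). Without thinning the shares were 39.5% and 53.1%. The summed G2/M CPM did not follow: it was higher in the class in both brain libraries (2758 against 1926 and 2813 against 2031) and all subcutaneous libraries, and lower in all liver libraries (1214 against 1598 in replicate 1). No order of proliferation was therefore read from the share. For the S phase genes the shares were 80.3% ± 7.21 and 80.7% ± 5.22 (exact permutation p = 0.742), and 95.1% and 95.7% without thinning.

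Transcripts of host cells were examined beside these results, since they differ with the site. Macrophage and microglia markers summed to 659 and 148 CPM in the class in the brain, against 638 and 162 CPM in the other tumour cells, and to 3.27 to 68.6 CPM in the other libraries of the class. Glial markers summed to 295.5 and 166 CPM in the brain and to 54.1 to 74.4 CPM elsewhere. Pericyte markers reached 163 and 204 CPM in liver replicates 2 and 3 of the class and 30.1 CPM in subcutaneous replicate 1, where 4 cells held at least 3 stromal UMIs, 1 in each of the liver libraries and 2 in the subcutaneous one. Over all libraries 10 cells of the class did. Pdgfra, often used as a marker of fibroblasts and glial precursors, stood at 10.96, 22.2 and 28.1 CPM in the class against 0.085, 0.236 and 2.99 (log2 difference 5.20, SE 0.68), with no overlap. Without the cells holding stromal UMIs, an alternative added after the data were seen, the site comparison of the class below kept its counts within 1.5 times. The part of host transcripts in the other results was not tested.

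Genes of a list drawn up as high in brain allografts as a whole were tied to the class to different degrees. In the 2 brain libraries the class made up 26.2% and 32.1% of tumour cells, yet it held 86.6% and 85.8% of the tumour UMIs of Tm4sf1, 82.0% and 80.5% of Clca3b (a chloride channel regulator gene), 66.3% and 63.4% of Lnx1 (a ubiquitin ligase gene), 70.9% and 72.8% of Bst2, and 54.7% and 56.2% of Reln. For Apoe, apolipoprotein E, the shares were 24.4% and 32.4%, and for Serpine2, a protease inhibitor, 21.7% and 23.96%. Ifi27l2a, a member of the interferon response list, lay between these, at 43.7% and 60.2%. The first 5 genes thus lay mostly in the class, and Apoe and Serpine2 in about the proportion of cells or below it. Serpine2 is on the list, but in the other tumour cells its levels overlapped between the sites. They were 145 and 148 CPM in the brain, 118, 134 and 155 in the liver, and 121, 146 and 142 under the skin. Within the class Tm4sf1 did not pass the edgeR test between brain and subcutaneous allografts (log2 difference 0.05, adjusted p = 0.96), nor did Lnx1 (-0.01, adjusted p = 0.996). Clca3b (1.31, adjusted p = 0.0239) and Bst2 (4.91, adjusted p = 0.0245) were higher in the brain. Against the liver Tm4sf1 (1.00, adjusted p = 0.0184) and Bst2 (5.03, adjusted p = 0.0218) were higher in the brain. Clca3b (0.89, adjusted p = 0.0758) and Lnx1 (-0.42, adjusted p = 0.314) did not pass there.

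Within the class the sites differed in fewer genes. Of 9305 genes tested by edgeR across the 8 summed libraries of the class, 754 (8.1%) were called between brain and liver, 367 higher in the brain (3.94%) and 387 lower (4.16%). Between brain and subcutaneous allografts 241 (2.59%) were called, 84 higher (0.903%) and 157 lower (1.69%) in the brain, and between liver and subcutaneous allografts 240 (2.58%), 119 higher (1.28%) and 121 lower (1.3%) in the liver. For 38%, 31.1% and 20.3% of all tested genes the libraries of the 2 sites did not overlap in these 3 contrasts. These counts moved with single libraries. For brain and liver they were 289 without brain replicate 1, 298 without brain replicate 2, 252 without liver replicate 1, 280 without liver replicate 2 and 1337 without subcutaneous replicate 1. For brain and subcutaneous they were 97, 148, 136, 128 and 990 without brain replicates 1 and 2 and subcutaneous replicates 2, 3 and 1. For liver and subcutaneous they were 68, 36, 147 and 417 without liver replicates 1 and 2 and subcutaneous replicates 3 and 1. The balance of directions moved as well. Of the calls between brain and subcutaneous 34.9% were higher in the brain, against 64.2% without brain replicate 2 and 50.5% without subcutaneous replicate 1. Between brain and liver it was 48.7%, against 61.7% without brain replicate 2, and between liver and subcutaneous 49.6% were higher in the liver, against 69.1%, 66.7% and 63.4% without liver replicates 1, 2 and 3.

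Interferon-induced genes led the increases in the brain. Usp18, which removes ISG15 from proteins, stood at 69.7 and 84.0 CPM in the brain against 0, 1.10 and 2.00 in liver replicates 1, 2 and 3, a ratio of 95.9 (counting interval 26.5 to 793; log2 difference 6.43, SE 0.70, adjusted p = 0.000278). Ifit1, an antiviral RNA-binding protein, stood at 14.0 and 23.5 CPM against 0, 1.10 and 0 (ratio 49.2, 8.78 to 1950). Apol9a, an apolipoprotein L gene with a near-identical copy, stood at 15.6 and 14.1 CPM in the brain and gave no UMI in the class in the liver. It was 11.8-fold above a floor of 3 counts over the liver group (lower counting limit 9.50). Igtp, an interferon-induced GTPase, stood at 10.2 and 14.9 CPM, 10.8-fold above this floor (lower counting limit 8.69).

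Against subcutaneous allografts, Apol9a in the brain was 28.7-fold above the floor of 3 counts (lower counting limit 23.2), and Ifit1 was 40.0-fold higher (13.6 to 195). Rtp4, another interferon-induced gene, was 35.2-fold higher (11.9 to 172), at 13.8 and 19.9 CPM against 0.528, 0.818 and 0. Bst2 stood at 166 and 253 CPM against 11.6, 1.64 and 0 (log2 difference 4.91, SE 0.66, adjusted p = 0.0245), a call that was lost without brain replicate 1 (0.0903), brain replicate 2 (0.134), liver replicate 3 (0.0572) or subcutaneous replicate 2 (0.0716), each an adjusted p. Of 13 tested interferon response genes 9 were higher in the brain than in the liver (median 1.69) and 8 higher than under the skin (median 2.12). Over all tested genes 3.94% and 0.903% were called higher in the brain in these contrasts. Another example against the liver was Irf7, a regulator of the interferon response, at 19.99 and 22.9 CPM against 0, 3.29 and 2.00 (log2 difference 3.63, SE 0.56).

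Interferon-induced transcripts were also present in the other cells of the brain libraries. Usp18 stood at 16.6 and 20.7 CPM in the other tumour cells and at 49.2 and 65.1 CPM in the cells below the tumour limit, while Bst2 stood at 27.0 and 45.4 and at 373 and 339 CPM. Isg15 ran differently, at 6.66 and 7.55 CPM in the class against 249 and 243 CPM in the cells below the tumour limit. Gfap, the astrocyte filament gene, stood at 13.7 and 9.30 CPM in the class in the brain (at least 8.66-fold above the liver and 21.1-fold above the subcutaneous site), against 23.0 and 16.0 CPM in the other tumour cells of these libraries and 21.3 and 55.5 CPM in the cells below the tumour limit. Whether host RNA enters these values was not tested.

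Genes lower in the brain than in the liver included Angptl4, a lipoprotein lipase inhibitor, at 0.163 and 0.159 CPM against 13.9, 3.29 and 14.0 (ratio 61.9 in favour of the liver, 18.8 to 321). Fgf1, a fibroblast growth factor, stood at 1.63 and 1.83 CPM against 13.9, 15.3 and 22.0 (log2 difference -3.24, SE 0.46, adjusted p = 0.000165), and Tfap2c at 1.14 and 1.27 CPM against 11.9, 13.1 and 12.01 (-3.35, SE 0.64, adjusted p = 0.00285). All liver libraries lay above both brain libraries, a condition for naming these genes. In the other tumour cells Tfap2c was also lower in the brain, at 10.5 and 10.1 CPM against 26.9, 29.1 and 31.7 in the liver. Fgf1 was not, at 0.901 and 0.689 CPM against 0.413, 0.512 and 0.262. Colec11, a collectin (adjusted p = 0.00711), and Sall3, a zinc finger factor (adjusted p = 0.0421), were also lower, and lost their call without brain replicate 2 (adjusted p = 0.113 and 0.186), Sall3 also without liver replicate 1 (0.154), 2 (0.078) or 3 (0.0884) or subcutaneous replicate 3 (0.0569).

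Some Hoxb and epithelial genes were lower in the brain than in the liver. Over all tested genes 4.16% were called lower in the brain than in the liver and 3.94% higher, and the list counts that follow stand beside these shares. Of 7 tested Hox genes outside the Hoxd cluster 4 were lower in the brain than in the liver, with a median of -1.27. Hoxb9 stood at 18.2 and 19.3 CPM in the brain against 96.2, 82.2 and 62.1 in the liver (log2 difference -2.17). Of 11 epithelial genes 5 were lower (median -0.81), Cdh1 by -2.38, Esrp1, a splicing regulator of epithelia, by -2.21, and Krt8 by -1.79. Against the subcutaneous site the medians were -0.27 for these Hox genes and -0.29 for the epithelial genes. Calca was lower in the brain too, at 257 and 272 CPM against 951, 839 and 1448 (-2.04, adjusted p = 9.05e-07). Of the 20 G2/M genes 11 were higher in the brain than in the liver (median 0.76), such as Plk1, a mitotic kinase (1.34), and Top2a, a topoisomerase (0.93).

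Hypoxia and glycolysis genes were lower in the brain than under the skin, 10 of 17 tested with a median of -1.16, where 1.69% of all tested genes were. Aldoa, aldolase, stood at 351 and 307 CPM in the brain against 787, 1379 and 877 (log2 difference -1.56, SE 0.19, adjusted p = 0.000123), and Pgk1, phosphoglycerate kinase, at 283 and 299 against 504, 939 and 591 (-1.15, SE 0.21). Bnip3, a mitophagy receptor, stood at 83.7 and 72.1 CPM against 193, 358 and 209 (-1.64). In each of these 3 genes every subcutaneous library exceeded both brain libraries. The class in the liver was also lower than under the skin, in 7 of 17 genes (median -0.90), where 1.3% of all tested genes were.

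Single genes lower in the brain than under the skin were Tppp3, a tubulin-binding protein, at 22.9 and 22.7 CPM against 155, 103 and 140 (log2 difference -2.51, SE 0.20, adjusted p = 4.89e-07), Fam174b at 5.04 and 6.28 against 22.7, 36.8 and 35.9 (-2.33, SE 0.26), and P4ha2, a collagen prolyl hydroxylase, at 1.95 and 2.46 against 12.1, 25.4 and 6.74 (-2.63, SE 0.45). In the other tumour cells P4ha2 was lower in the brain too, at 2.57 and 2.76 CPM against 19.6, 22.5 and 20.5. Their levels of Tppp3 (3.15 and 4.40 against 3.61, 1.40 and 1.53) and Fam174b (1.35 and 2.83 against 4.93, 1.97 and 2.39) overlapped between these sites. The ETS factors Etv4 (-3.18, SE 0.63, adjusted p = 0.0153) and Etv5 (-2.87, SE 0.60, adjusted p = 0.013) were lower as well, but Etv4 was not called without brain replicate 2 (adjusted p = 0.0953), and Etv5 not without brain replicate 1 (0.0575), brain replicate 2 (0.223), subcutaneous replicate 2 (0.0553) or subcutaneous replicate 3 (0.0621).

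Between liver and subcutaneous allografts, Fbxo2, a ubiquitin ligase subunit for glycoproteins, stood at 24.8, 39.4 and 44.1 CPM in the liver against 1.85, 5.73 and 6.74 (log2 difference 3.34, SE 0.42, adjusted p = 0.000163). Cox6a2, a muscle form of a cytochrome oxidase subunit, stood at 0, 1.10 and 0 CPM in the liver against 19.5, 16.4 and 12.4 (ratio 43.1 in favour of the subcutaneous site, 7.56 to 1717). The groups did not overlap in either gene, a condition for naming them. Tmprss4, a membrane protease, was 30.5-fold higher in the liver (7.60 to 266) and lost its call without subcutaneous replicate 1 (adjusted p = 0.0518). Capn6, a calpain relative (-2.25, SE 0.41), and Ap1m2, an epithelial sorting adaptor (2.82, SE 0.59), lost theirs without liver replicate 2 (adjusted p = 0.0781 and 0.164). The other tumour cells also held more Fbxo2 in the liver, at 55.4, 47.8 and 51.8 CPM against 8.44, 28.1 and 28.5. The same held for Tmprss4 (23.5, 31.5 and 21.4 against 5.04, 4.36 and 6.88) and Ap1m2 (21.6, 34.4 and 28.4 against 10.6, 12.2 and 17.9). Their Capn6 overlapped between the 2 sites, at 0.310, 0.128 and 0.327 against 0.475, 0.214 and 0.314.

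Finally, the difference between the class and the other tumour cells was itself compared between sites. Of 13685 genes 738 (5.39%) had a class difference that differed between brain and liver, 341 larger in the brain (2.49%) and 397 smaller (2.9%). Between brain and subcutaneous allografts 155 (1.13%) did, 22 larger and 133 smaller in the brain, and between liver and subcutaneous allografts 173 (1.26%). Of the 24 genes named above for the class 10, 5 and 1 were among them. The counts moved with single libraries here too, for brain and liver to 337 and 318 without brain replicates 1 and 2, to 422, 287 and 375 without liver replicates 1, 2 and 3, and to 1684 without subcutaneous replicate 1. For brain and subcutaneous they moved to 80 and 56 without brain replicates 1 and 2 and to 1056 without subcutaneous replicate 1. For liver and subcutaneous they moved to 102, 31 and 87 without liver replicates 1, 2 and 3 and to 343 without subcutaneous replicate 2.

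Calca gave the smallest p-value. It was higher in the class by 1.64 on the log2 scale in the brain, by 4.33 in the liver and by 2.44 under the skin, so that the brain and liver differed by -2.69 (SE 0.12, adjusted p = 1.64e-17) and the liver and subcutaneous site by 1.89 (SE 0.11). In the other tumour cells it stood at 79.7 and 87.5 CPM in the brain, 47.7, 37.3 and 59.5 in the liver and 73.0, 64.9 and 65.3 under the skin. Dio1, a thyroid hormone deiodinase, was higher in the class by 2.17 in the brain, 6.22 in the liver and 4.77 under the skin (brain minus liver -4.05, SE 0.33). In the class Dio1 stood at 24.9 and 27.6 CPM in the brain and 40.7, 32.9 and 58.1 in the liver. In the other tumour cells the levels were 4.96 and 6.47 CPM in the brain and 0.496, 0.277 and 0.873 in the liver. Tubb2a, a tubulin gene with a near-identical copy, differed by -0.02 in the brain and was higher in the class by 3.28 in the liver and 1.88 under the skin (brain minus liver -3.30, SE 0.24). In the class Tubb2a stood at 27.8 and 32.0 CPM in the brain and 40.7, 43.8 and 84.1 in the liver. In the other tumour cells the levels were 23.0 and 37.2 CPM in the brain and 4.13, 4.35 and 6.83 in the liver. For both genes the difference thus includes higher levels in the other tumour cells of the brain. As given above, the other tumour cells of the brain libraries held the most cells that cluster with the class; with cells taken by cluster, an alternative added after the data were seen, Calca differed between brain and liver by -2.80, Dio1 by -4.09 and Tubb2a by -3.72.

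The differences between the class and the other tumour cells were unevenly spread over the chromosomes. Over 5891 genes with at least 20 CPM, 22.2% were called higher and 30.5% lower. On chromosome 14, 66.7% of 168 genes were called higher, and the median log2 ratio of its genes exceeded that of all genes by 0.46 ± 0.10 (SD, n = 8 libraries, range 0.26 to 0.59). On chromosome 8 the excess was 0.22 ± 0.10, with 47.2% of genes called higher. Both were positive in 8 of 8 libraries (2-sided exact sign-flip permutation p = 0.0078, adjusted over 20 chromosomes 0.0195), a comparison added after the data were seen. Smaller shifts with the same p-value, of 1 sign in all 8 libraries, were 0.09 on chromosome 4 and -0.06, -0.08, -0.05, -0.05 and -0.05 on chromosomes 2, 10, 13, 17 and X. Each value is relative to the median of all genes, so rises on some chromosomes push the others below 0. The small negative values are therefore not read as changes of these chromosomes. Chromosome 6 differed between libraries, at 0.37 and 0.35 in the brain, 0.39 in subcutaneous replicate 1 and -0.04 to 0.03 in the other 5 libraries (exact permutation p = 0.195, adjusted 0.23). The 3 libraries with the highest chromosome 6 values were those with the largest shares of the class.

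Within chromosomes the shifts covered long stretches. Of 113 windows of 20 megabases 101 had a median log2 difference within 0.2 of 0, 9 lay above and 3 below. The window from 80 to 100 megabases of chromosome 8 stood at 0.85, with 62 of 78 genes called higher, and that from 120 to 140 megabases of chromosome 4 at 0.46, with 102 of 150 called higher. The next window of chromosome 4, from 140 to 160 megabases, went the other way at -0.81, with 54 of 63 genes called lower, and the window from 140 to 160 megabases of chromosome 2 stood at -0.48, with 63 of 82 called lower. Neighbouring genes there moved together in opposite directions on the 2 sides of a window border on chromosome 4. What underlies these stretches was not tested. The single genes and gene lists given above were not adjusted for the shift of the stretch in which they lie.

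**Figure D5:**
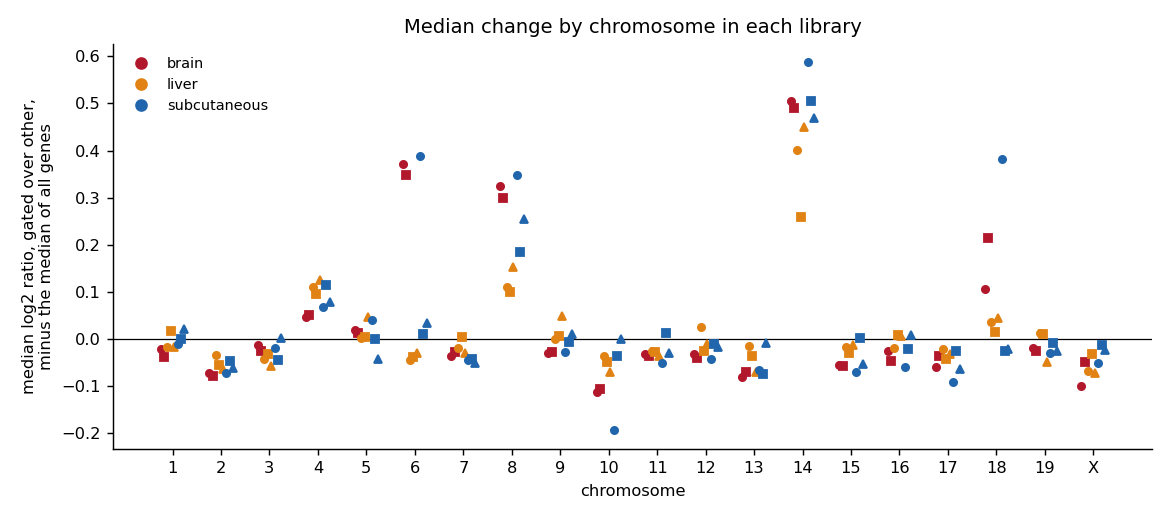
Median log2 ratio of the class over the other tumour cells for the genes of each chromosome (x axis), minus the median of all genes (y axis), with 1 point per library coloured by site and shaped by replicate. Chromosomes 14 and 8 lie above 0 in all 8 libraries, and chromosome 6 stands near 0.37 in both brain libraries and subcutaneous replicate 1.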

How the data were processed

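Gene-by-cell UMI count matrices of 8 libraries were used as deposited. Per the submitters' processing notes the authors used Cell Ranger, STAR and the mm10 build, and the matrix headers name Cell Ranger 3.0.0; these deposited counts are not normalized, and the annotation version is not given in the sources used here. Doublets were not removed.

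Here counts were summed per library and class and tested with edgeR 4.0.16 (R 4.3.3; quasi-likelihood, TMM, filterByExpr, library as a term for the class, site for the class alone, both for the difference between sites), with Benjamini-Hochberg adjustment and a limit of 0.05. Genes below the filter held 0.0801% of UMIs in the class comparison and 1.07% in the site comparison. CPM values scale the UMIs of a summed library to an equal total. Positions are from the GENCODE annotation of GRCm38, and 22029 of the 22056 genes had one. Other sums, clusters and tests used Python 3.11.15, scipy 1.17.1 and scanpy 1.11.5.

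Genes were named by rule: the 12 largest log2 changes each way with adjusted p under 0.05, at least 10 CPM and one sign in all libraries; 5 each way per site contrast, without overlap and at least 10 CPM; the 5 smallest adjusted p-values per difference between sites; and members of 29 gene lists. Single genes that this rule names but the text does not are not reported here. The members and lists were chosen with earlier results of these data known. On simulated counts the class fit recovered 98.5% of 200 changed genes, the brain and liver site fit 64% and the brain and subcutaneous fit 76.5%, with 4.37%, 4.48% and 11.0% of calls false. Alternatives covered the gate, depth, filter, normalization, DESeq2 1.42.0 and leaving out each library.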

Additional observations from a re-analysis of the deposited data

Results flagged for a closer look

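The difference between the En1 Des Hoxd class and the other tumour cells was itself different between sites for several genes, by the edgeR interaction test. Between brain and liver (brain minus liver, log2) the values were -2.69 for Calca, -3.30 for Tubb2a, -4.05 for Dio1, -2.79 for Clca3b and -3.25 for Tppp3, which was higher in the class by 2.55 in the brain and 5.80 in the liver. Between brain and subcutaneous allografts they were -3.37 for Tppp3, -2.82 for Clca3b, -1.16 for Smap2, -1.90 for Tubb2a and -2.60 for Dio1. A negative value does not mean a lower level in the class in the brain. Clca3b stood at 145 and 105 CPM in the class in the brain and 61.5, 50.4 and 92.1 in the liver. In the other tumour cells Clca3b stood at 12.6 and 12.2 CPM in the brain and 0.723, 0.831 and 1.18 in the liver. With cells taken by cluster Clca3b differed by -0.64 (adjusted p = 0.234) from the liver and -0.65 (adjusted p = 0.461) from the subcutaneous site, and Smap2 by -0.42 (adjusted p = 0.211), so these 3 calls were lost; the other 7 were kept.

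Between liver and subcutaneous allografts the values were 1.89 for Calca, 0.88 for Lrrc42, -1.19 for Eef1a2, a translation factor of neurons and muscle, 2.29 for Kcnk3, a potassium channel, and -1.47 for Msn, moesin. Kcnk3 stood at 32.7, 41.6 and 34.0 CPM in the class in the liver and at 14.5, 19.6 and 20.2 CPM under the skin.

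Cells below the tumour limit were used in no comparison, and some of them reached the 5-gene sum of 2, 9 in brain replicate 1 and 8 in subcutaneous replicate 1. The liver libraries had none among 57, 168 and 90 such cells.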

How the results depend on the processing

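The share of the class stayed highest in the brain under each alternative run. Over 3 sites its excess was 23.0 to 28.9 points with single libraries left out, and the p-value passed 0.05 without liver replicate 2 (25.9 points), liver replicate 3 (25.8) or subcutaneous replicate 1 (27.1); pairs of sites gave 24.4 to 30.3, 21.6 to 27.4 and -4.06 to -0.34. The S phase difference (-0.352 points) had no stable sign: 3.19 at 8 UMIs or more, 0.823 against depth-matched cells, and -1.05 to 0.25 with libraries left out, positive without liver replicate 2 (0.0947) and subcutaneous replicate 3 (0.249). For G2/M the difference was -10.2 to -7.96 with libraries left out and -7.64 against depth-matched cells. It was -4.91 at 8 UMIs or more, -11.0 at 2 UMIs or more and -13.5 without thinning. Held-back ratios ran 4.98 to 5.50, 5.11 to 5.80, 4.33 to 4.71, 4.86 to 5.31 and 5.10 to 5.63 for En1, Des, Hoxd9, Hoxd10 and Hoxd11.

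Class calls numbered 3732 with En1 alone, 2945 in the liver, 3457 under the skin, 3375 thinned, 5528 by DESeq2 and 4941 to 5602 with libraries left out. By library size alone 54.0% of 5533 calls were higher. Site calls for brain and liver were 502 by cluster, 1328 unfiltered, 1206 with 2 sites and 252 to 1337 with libraries left out. For brain and subcutaneous they were 143 at 3 UMIs, 660 unfiltered and 97 to 990, and for liver and subcutaneous 574 unfiltered and 36 to 417. Unfiltered, 57.2% and 50.6% of brain contrasts were higher. Differences between sites ran 287 to 1684, 56 to 1056 (384 unfiltered) and 31 to 343 (421 unfiltered, 99 without cells with stromal UMIs). Of the named genes' alternative values 1208 kept their call, 48 lost it and 0 reversed.

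Same-numbered libraries did not deviate together (correlations -0.06 to 0.09 over 7 pairs), so numbers do not pair them. With a replicate block the site counts were 683, 207 and 283 and the share had an exact permutation p of 0.0278; without a block for library the class count was 4622. Liver libraries, with 58 to 98 cells of the class, limit what can be seen there.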
